A study of Mus musculus with 2 samples.

Results

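The genes described here are Trp53, which encodes the transcription factor p53, and 9 genes that p53 is known to switch on: Mdm2, Cdkn1a, Ccng1, Phlda3, Sesn1, Sesn2, Bbc3, Perp and Trp53inp1. They were taken from the authors' tables by symbol, with no threshold on their values, though earlier results of these data were known when the list was made. They make up 10 of the 22072 gene symbols and 14 of the 28107 transcript rows listed, and FPKM (a fragment count divided by transcript length and library depth) was summed over the rows of a gene. The libraries were RNA-seq of lung epithelial cells sorted from adult mice as lineage-negative, CD326-positive and CD24-intermediate, a gate meant to enrich secretory airway cells without cilia. All mice were fed doxycycline (625 mg/kg food) for 16 days. All mice, controls included, carried tetOCre and were homozygous for floxed Mst1 and Mst2, the Hippo pathway kinases whose gene symbols are Stk4 and Stk3. The second genotype carried Scgb1a1-rtTA as well, a transactivator under the promoter of a club cell gene that lets doxycycline switch on Cre. Effects of the transactivator, of Cre activity and of losing the kinases cannot be told apart in this design. RNA of 4 mice was pooled for each genotype and sequenced as 1 library, so there is no replicate error and no test; the samples are called the control pool and the pool labelled Mst1/2-deleted.

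The p53 protein is made continuously and is kept scarce by Mdm2, a ubiquitin ligase that marks it for destruction. Because p53 itself switches on Mdm2, the pair forms a feedback loop. DNA damage and other stresses free p53 from Mdm2, and the stabilised protein binds a DNA element made of paired half-sites to switch on genes of cell cycle arrest, growth restraint and cell death. Regulation of p53 is thus mostly at the level of the protein, which RNA-seq does not measure.

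The authors' coverage values correspond to about 8770000 transcript reads for the control pool and 8340000 for the other. The targeted genes were not strongly reduced in the pool labelled Mst1/2-deleted: Stk4 had FPKM of 5.38 and 4.71 in that order of libraries, and Stk3 had 7.28 and 7.09. These values span whole transcripts, and the labels do not say which exons were floxed. Of the markers of secretory club cells, Cyp2f2 was abundant in both libraries (FPKM 4694 and 5305), whereas Scgb1a1 is listed at 0 in both because its estimate failed. The summed FPKM of 10 club cell markers was 12424 and 10681, and that of 10 alveolar type 2 cell markers was of the same order, 11909 and 14689, so markers of both cell types were abundant in the sort. Markers of other cell types differed as well. The summed FPKM of 11 alveolar type 1 cell markers was 179 and 409, that of 8 basal cell markers 25.5 and 9.49, that of 7 mucous cell markers 32.0 and 10.6, that of 10 leukocyte markers 18.4 and 10.1, that of 8 mesenchymal markers 19.3 and 8.29, that of 7 endothelial markers 11.7 and 6.84, and that of 10 ciliated cell markers 78.7 and 100.2. Several sums rested largely on a single gene: Kdr (9.05 and 5.11) for the endothelial and Tubb4b (45.8 and 46.1) for the ciliated markers. The same held for Sftpc (7888 and 10270) among alveolar type 2, Muc5b (17.7 and 6.85) among mucous and Dcn (11.9 and 3.79) among mesenchymal markers. Cyp2f2 and Cbr2 (5224 and 3803) made up most of the club sum and differed in opposite directions. Among filtered leukocyte markers, Csf1r (0.984 and 1.80) and Cd79a (0.527 and 1.06) were higher while 5 were lower. Csf1r and Cd79a reached FPKM of 1 only in the pool labelled Mst1/2-deleted. Of the 5 lower, Tyrobp, Laptm5 and Coro1a reached it only in the control pool. Fewer cells of a type and less RNA per cell cannot be told apart in such pools, and the part of these differences in the values below was not tested.

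Among the p53 targets, Cdkn1a and Mdm2 were higher in the pool labelled Mst1/2-deleted, and Ccng1, Perp, Phlda3, Trp53inp1 and Sesn2 were lower, while Trp53 itself had nearly the same FPKM in both. The differences were modest. On the log2(FPKM + 1) scale used for all genes, 0 of the 9 genes with FPKM of at least 1 in either library were 1.5-fold higher and 0 were 1.5-fold lower, where 3.02% and 2.59% of the 9945 genes so filtered were. At 1.2-fold, 2 were higher (Cdkn1a and Mdm2, 22.2%), near the background of 18.3%. At that fold 3 were lower (Ccng1, Phlda3 and Perp, 33.3%) against 9.73%. Bbc3 was under FPKM of 1 in both libraries and did not pass that filter. The median difference of the 9 genes was -0.20, with 3 above and 6 below 0, and that of all 9945 genes was 0.07.

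**Figure D1:**
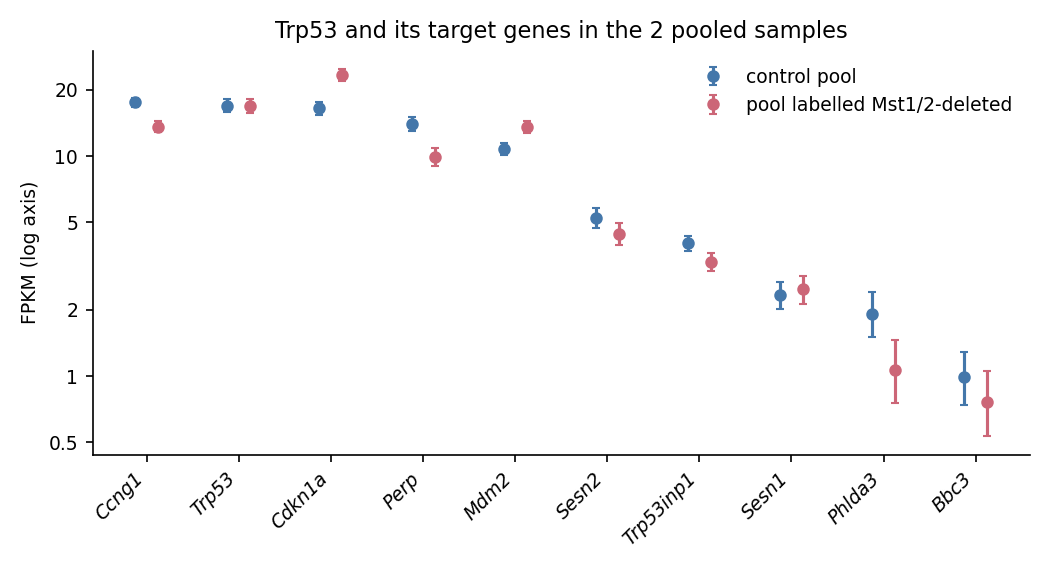
FPKM of each gene on a log axis in the control pool (blue) and the pool labelled Mst1/2-deleted (red), ordered by the control value; bars are 95% intervals for counting error only. Cdkn1a goes from 16.5 to 23.4 and Mdm2 from 10.8 to 13.5, while Ccng1, Perp and Phlda3 lie lower in red than in blue.

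The genes spanned a wide range of levels. In the control pool, Ccng1 (FPKM 17.6), Trp53 (16.9) and Cdkn1a (16.5) were highest and had overlapping 95% counting intervals. Perp (14.0), Mdm2 (10.8), Sesn2 (5.24) and Trp53inp1 (4.01) followed, each below the interval of the gene before it. Sesn1 (2.33) and Phlda3 (1.92) overlapped each other, and Bbc3 was lowest at 0.986. In the pool labelled Mst1/2-deleted the order at the top was different: Cdkn1a was alone in first place at 23.4, Trp53 came next at 16.9, and Ccng1 (13.6) and Mdm2 (13.5) could not be separated. Among genes with FPKM of at least 1, Cdkn1a lay at the 88.9 percentile of levels in the control pool and the 92.0 percentile in the other. Phlda3 lay at the 21.8 and 1.71 percentiles.

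Trp53 (chr11:69393861-69405375, mm9) measured 16.94 FPKM in controls and 16.87 after the intended deletion, for a ratio of 0.996 with a counting interval from 0.899 to 1.10. About 821 and 726 reads stood behind these values. The summed level was therefore indistinguishable between the libraries at this depth. Wrap53, which overlaps Trp53 on the opposite strand and was singled out for that overlap after the values were seen, had FPKM of 0.404 and 0.253; no source used here states whether the library kept strand, so reads from such a pair may not be fully separated.

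The 2 Trp53 transcripts did not keep the same proportions in the authors' estimates. The main transcript (NM_011640) had FPKM of 13.7 and 15.7. The alternatively spliced one (NM_001127233), known to give p53 a different carboxy-terminal end, had 3.26 and 1.15, or 19.2% and 6.81% of the FPKM of the gene. It carries 96 additional bases at the 5′ side of its last exon, exon 11 of 11, which bring an earlier stop codon. The stretch from the start of this insertion to that stop codon is shown because it is what distinguishes the transcripts, with the stop codon in capitals (plus strand of chromosome 11, from the GENCODE M21 transcripts on GRCm38):
Trp53 insertion: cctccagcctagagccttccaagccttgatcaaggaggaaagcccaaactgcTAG
The transcripts are otherwise identical, so only reads that touch the insertion or its junctions can separate them. The coverage of the spliced form corresponds to about 8.47 and 2.67 reads over those 96 bases, and with so few the ratio of 0.352 has a counting interval from 0.0716 to 1.75.

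**Figure D2:**
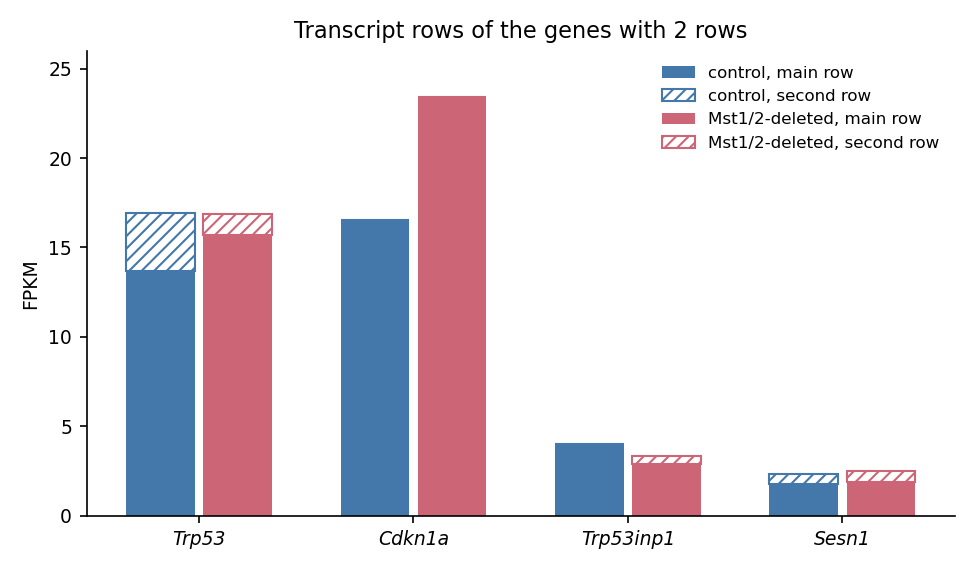
FPKM of the transcript rows of the 4 genes that have 2 rows; filled bars are the row with the higher control value and hatched bars the second row, stacked so that the height is the gene's sum, in control (blue) and Mst1/2-deleted (red). The height for Trp53 is nearly equal in both libraries while its second row goes from 3.26 to 1.15, and the second row of Cdkn1a is too small to see.

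Mdm2 (chr10:117125961-117147772), the ligase and feedback inhibitor of p53, stood at 10.8 FPKM in controls and at 13.5 FPKM in the other pool. The ratio was 1.26 (1.15 to 1.38), from about 882 and 991 reads. Of all tested genes, 14.4% had a larger positive difference on the log2(FPKM + 1) scale. Set against Trp53 within the same library, which removes the depth scaling, Mdm2 reached 0.636 of the Trp53 level in controls and 0.801 in the pool labelled Mst1/2-deleted. Mdm4, the related p53 inhibitor that lacks strong ligase activity of its own, was singled out after its values were seen: it was at 9.15 and 7.87 FPKM, or 0.860 of the control value (0.776 to 0.952). The Mdm2 level was accordingly 1.18 times that of Mdm4 in controls and 1.72 times in the other pool.

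Cdkn1a (chr17:29227931-29237667) encodes p21, the inhibitor of cyclin-dependent kinases through which p53 arrests the cell cycle. It measured 16.5 FPKM in controls and 23.4 FPKM in the pool labelled Mst1/2-deleted, and the ratio was 1.42 (1.29 to 1.55) from about 855 and 1083 reads. Of all 9945 genes, 5.16% had a larger positive difference on the log2(FPKM + 1) scale. Nearly all of this signal was assigned to the transcript with the downstream start (NM_007669, from position 29230717), and the transcript with the upstream start (NM_001111099) had FPKM of only 9.25e-06 and 1.07e-05. Ccng1 (chr11:40562054-40568788) encodes cyclin G1, another strongly p53-responsive gene, whose product feeds back on p53 and Mdm2. It differed in the opposite direction, at 17.6 and 13.6 FPKM, and the ratio was 0.773 (0.716 to 0.834) from about 1660 and 1148 reads. The level of Cdkn1a relative to Ccng1 was 0.940 in controls and 1.72 in the other pool.

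Start-site sequence was examined because Cdkn1a and Mdm2 differed in one direction and Ccng1 in the other. RefSeq start windows on GRCm38.p6, from 250 bases before to 50 bases after a start, were matched for 8 of the 10 genes, with 12 windows in all. Perp and Trp53inp1 had no match. The pattern searched was the p53 half-site of 10 bases (purines, C, A or T, G, pyrimidines), which reads the same on both strands. It was found in 5 of the 12 windows (41.7%) and in 8.36% of all 32851 windows, and the 5 belonged to Trp53, Cdkn1a, Mdm2, Ccng1 and Sesn1. Those of Phlda3, Sesn2 and Bbc3 did not hold these letters. The windows of the 3 genes compared are shown 5′ to 3′ on the strand of the gene, with half-site matches in capitals; Cdkn1a is at chr17:29090729-29091028 (plus strand), Mdm2 at chr10:117710709-117711008 (minus) and Ccng1 at chr11:40755237-40755536 (minus):
Cdkn1a upstream start: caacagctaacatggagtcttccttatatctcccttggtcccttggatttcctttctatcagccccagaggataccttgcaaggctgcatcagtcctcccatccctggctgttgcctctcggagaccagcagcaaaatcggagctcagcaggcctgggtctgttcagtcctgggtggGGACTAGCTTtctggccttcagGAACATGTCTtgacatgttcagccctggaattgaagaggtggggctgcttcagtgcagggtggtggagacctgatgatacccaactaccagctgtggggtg
Mdm2: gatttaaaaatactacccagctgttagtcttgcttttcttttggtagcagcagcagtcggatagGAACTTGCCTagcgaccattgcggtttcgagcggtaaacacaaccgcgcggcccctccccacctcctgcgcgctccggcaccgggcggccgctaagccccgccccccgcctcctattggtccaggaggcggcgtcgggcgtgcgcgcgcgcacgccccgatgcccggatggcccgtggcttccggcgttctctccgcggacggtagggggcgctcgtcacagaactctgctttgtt
Ccng1: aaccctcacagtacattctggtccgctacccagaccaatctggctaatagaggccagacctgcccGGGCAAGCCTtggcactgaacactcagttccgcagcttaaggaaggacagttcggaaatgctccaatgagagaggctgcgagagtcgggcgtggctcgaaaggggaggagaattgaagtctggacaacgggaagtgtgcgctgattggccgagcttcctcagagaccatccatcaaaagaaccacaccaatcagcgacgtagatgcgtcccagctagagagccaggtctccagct
The Cdkn1a window with matches is the one at the upstream start, 2790 bases before the downstream start on that build, and its matches begin 73 and 51 bases before the upstream start. Among all windows, 0.359% held 2 or more. The window at the downstream Cdkn1a start, the start of the transcript with nearly all the signal, held no match. The matches in Mdm2 and Ccng1 begin 186 and 185 bases before their starts. Sequence outside the windows was not searched, and any relation of matches to the direction of a difference was not tested. A match describes letters only and does not show binding.

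The next genes act on growth and survival signalling. Phlda3 (chr1:137662662-137665711) encodes a small pleckstrin homology protein that competes with the kinase Akt for membrane lipids. It measured 1.92 FPKM in controls and 1.07 FPKM in the pool labelled Mst1/2-deleted, and the ratio was 0.557 (0.368 to 0.836) from only about 76 and 38 reads. On the log2(FPKM + 1) scale the difference was -0.50, and 3.48% of all tested genes had a lower one. Sesn1 and Sesn2 encode sestrins, stress proteins that restrain the growth kinase complex mTORC1. Sesn2 (chr4:132048722-132066371) was at 5.24 and 4.43 FPKM, or 0.847 of the control value (0.724 to 0.991). Sesn1 (chr10:41530380-41628242) had 2.33 and 2.48, a ratio of 1.06 (0.863 to 1.31) that did not differ from 1 beyond counting error. Its longer transcript (NM_001162908) was assigned 77.0% and 76.1% of the FPKM of the gene. The Sesn1 transcripts start at different positions (41530380 and 41607245). Reads that tell them apart therefore cannot be counted from their lengths, and these shares carry no interval here. The intervals of Phlda3 and Sesn2 reached past 1 when a read was taken as 100 bases instead of 47.1, with upper bounds of 1.01 and 1.07.

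Of 18 genes of the sestrin and mTORC1 branch, 17 passed the filter on low values. On the log2(FPKM + 1) scale, 2 of these were at least 1.2-fold higher (11.8%) and 0 lower, against 18.3% and 9.73% of all genes. The median difference was 0.10, close to the 0.07 of all genes. The higher ones were Mlst8 (FPKM 0.663 and 1.06) and Rptor (1.54 and 2.05), both subunits of mTORC1. Mlst8 passed the filter only by its value in the pool labelled Mst1/2-deleted. Rheb, the small GTPase that activates the complex and the most abundant of the list, had 9.79 and 9.41. Sesn3, the third sestrin and a member of this list, had FPKM of 7.80 and 7.79, more than Sesn1 or Sesn2 in either library.

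Bbc3 (chr7:16894932-16903683) encodes Puma, a protein that triggers mitochondrial cell death by blocking Bcl2 proteins. With FPKM of 0.986 and 0.761 and about 53 and 36 reads, its ratio of 0.771 had a counting interval (0.483 to 1.18) that spans 1. Trp53inp1 (chr4:11083588-11101524), whose nuclear protein promotes p53-dependent death and autophagy, was at 4.01 and 3.31 FPKM, or 0.825 of the control value (0.728 to 0.938). Its second transcript (NM_001199105), longer by 38 bases, went from 0.0001 to 0.420 FPKM, which corresponds to 0.387 of a read over those bases in the pool labelled Mst1/2-deleted and so could not be measured.

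Perp (chr10:18564877-18576878) encodes a membrane protein with 2 roles, as a p53 target in cell death and as a component of desmosomes in layered epithelia. It measured 14.0 FPKM in controls and 9.91 FPKM in the other pool, 1.42-fold lower (1.26 to 1.60), from about 722 and 456 reads. Of all tested genes, 4.07% had a lower difference. Most of the better expressed desmosome genes did not share this direction. All 7 that passed the filter, of 12 listed, were above 0 (median 0.36). Of the 7, 4 were at least 1.2-fold higher (57.1%) and 0 lower, against 18.3% and 9.73% of all genes. Jup, the plakoglobin gene, had FPKM of 19.9 and 26.2, Pkp2 8.09 and 12.4, Pkp4 9.01 and 11.9, and the desmocollin gene Dsc2 0.472 and 1.33. Dsc2 thus passed the filter only by its value in the pool labelled Mst1/2-deleted. The ratios of Dsg2 (0.926 to 1.11) and Pkp3 (0.802 to 1.31) did not differ from 1 beyond counting error. Below the filter, Dsc3 had 0.0809 and 0.0145 FPKM, from about 12 and 2 reads (interval of the ratio 0.0203 to 0.837), and Pkp1 had 0.0811 and 0.0382 FPKM, from about 10 and 4 reads. The desmosomal cadherins Dsg1a and Dsc1, which belong to layered skin-type epithelium, are listed at 0 in both libraries. Of 8 basal cell markers, 5 passed the filter and all 5 were at least 1.2-fold lower, where 9.73% of all genes were. Krt5 had 10.7 and 2.998, and Krt14 was at or near 0 in both libraries. This direction was not particular to basal cells. Of filtered markers, 4 of 4 mucous, 3 of 4 mesenchymal, 5 of 7 leukocyte, 5 of 9 club and 1 of 1 endothelial were also lower by 1.2-fold. Higher by 1.2-fold were 9 of 10 alveolar type 1, 6 of 10 alveolar type 2, 6 of 8 ciliated, 2 of 7 leukocyte and 1 of 9 club markers. Some of these markers reached FPKM of 1 only in the library where they were higher. Ngfr, Tff2 and Agr2 did so in the control pool, and Rtkn2, Ak7 and Fam183b in the pool labelled Mst1/2-deleted. The summed marker values are given above, and the part of any cell type in the Perp difference was not tested.

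**Figure D3:**
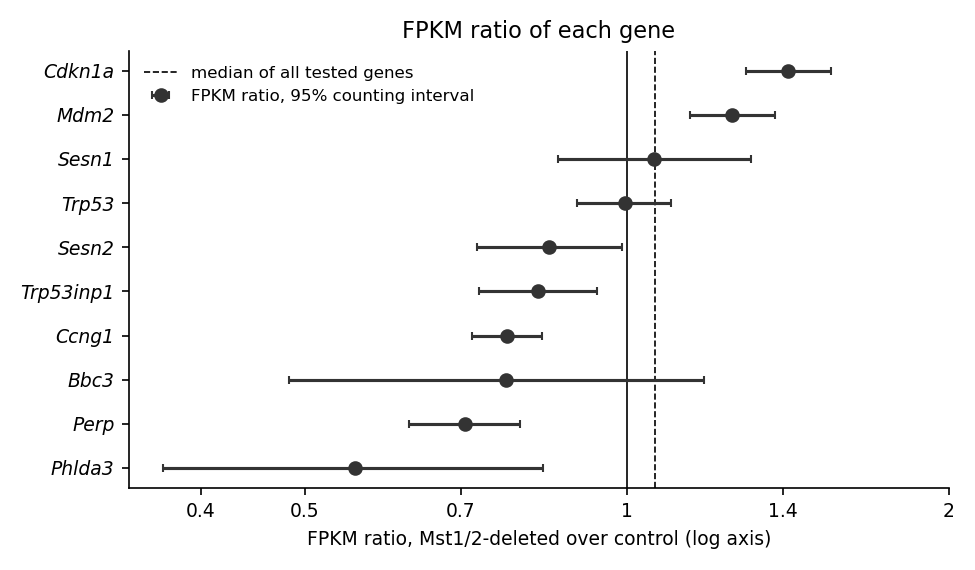
FPKM ratio, Mst1/2-deleted over control, for each gene, on a log axis, with 95% intervals for counting error only; the solid line is 1 and the dashed line the median ratio of all tested genes, 1.06. The intervals of Cdkn1a and Mdm2 lie above 1, those of Phlda3, Perp, Ccng1, Trp53inp1 and Sesn2 below it, and those of Trp53, Sesn1 and Bbc3 cross it.

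Judged by counting error alone, 2 of the 9 filtered genes (22.2%) lay above 1, against 29.6% of all tested genes, and 5 (55.6%) lay below, against 12.3%. These shares were not matched for level, and an interval is narrower where reads are more. In the control pool Ccng1, Trp53, Cdkn1a, Perp and Mdm2 lay at the 81.9 to 89.7 percentiles of levels. The intervals of Phlda3 and Sesn2 depended on the read size, as given above. Such an interval also leaves out differences between mice, sorts and library preparations. All genes together were shifted slightly upward, so a gene at a ratio of 1 lay below the median gene. When differences were centred on the median of well expressed genes, the split of all genes past 1.5-fold went from 53.8% higher to 38.3% higher, and Sesn1 was then below 0. Cdkn1a and Mdm2 were above 0 and Ccng1, Perp, Phlda3, Trp53inp1, Sesn2 and Bbc3 below 0 in all 8 settings computed for single genes.

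**Figure D4:**
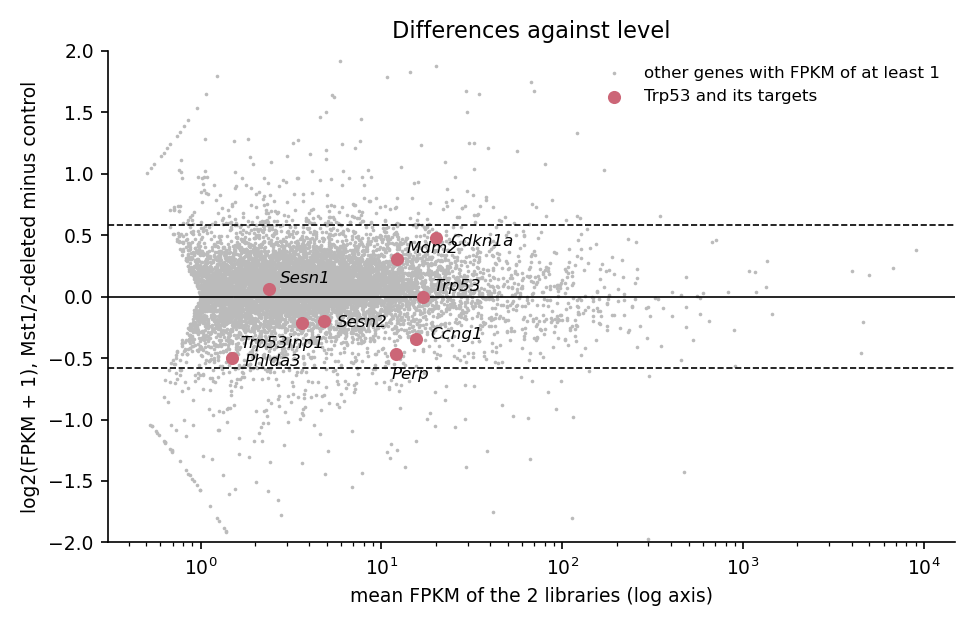
Difference between the libraries on the log2(FPKM + 1) scale against mean FPKM (log axis) for the 9945 genes tested (grey), with Trp53 and its targets in red; dashed lines mark 1.5-fold, and 29 genes lie outside the plotted range. The red points all lie between the dashed lines, with Cdkn1a nearest the upper line and Phlda3 and Perp nearest the lower one.

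Other genes of the pathway were described from lists of known p53 regulators, family members, targets and repressed genes, and counted together with the sestrin and mTORC1 and the desmosome lists above. Across these lists 94 genes were found in the tables and 66 passed the filter. Of these, 2 were at least 1.5-fold higher (the p53 target Bid and the desmosome gene Dsc2) and 0 lower. Bid and Dsc2 were under FPKM of 1 in the control pool and passed the filter only by their value in the other. At 1.2-fold 12 were higher (18.2%) and 4 lower (6.06%), not far from the 18.3% and 9.73% of all genes. Of the 12, 4 were desmosome genes and 2 were genes of the sestrin and mTORC1 branch. Among 15 regulators of p53, 12 passed the filter and 1 differed by 1.2-fold. This was Hipk2, a kinase that phosphorylates p53, at FPKM of 7.39 and 10.7. Ep300, an acetyltransferase and the most abundant regulator, had 11.6 and 12.7. Cdkn2a, which encodes the Mdm2 inhibitor p19Arf as well as p16, is listed at 0 in the control pool and had 0.0599 in the other. That value corresponds to about 1 read, so Cdkn2a could not be measured. Of the p53 family, Trp63, the basal cell factor, had 2.43 and 1.44, a ratio of 0.592 (0.465 to 0.758), and Trp73 had 0.116 and 0.0887.

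Of the other p53 targets, 5 of 30 filtered genes were at least 1.2-fold higher (16.7%) and 3 lower (10%). These shares were near the 18.3% and 9.73% of all genes, and the median difference was -0.04. In the cell cycle group, Plk2, a polo-like kinase gene, had FPKM of 16.7 and 12.7 and Ccng2, the cyclin G2 gene, 2.97 and 3.85. Btg2, an antiproliferative gene and the most abundant of that group, had 86.6 and 76.2. In the cell death group, Bid, which links death receptors to mitochondria, was 2.91-fold higher (1.98 to 4.21) from a low level (FPKM 0.792 and 2.30), and Siva1 had 11.9 and 8.64. Below the filter, Pmaip1 of that group had 0.333 and 0.0757 FPKM, from about 24 and 5 reads. Its ratio was 0.227 (0.0694 to 0.623). In the metabolic group, the autophagy gene Dram1 had 78.3 and 101, and Tigar, which encodes a regulator of glycolytic flux, had 2.36 and 1.65. In the DNA repair group, Polk, a translesion polymerase gene, had 2.12 and 3.003, and Rrm2b, which encodes the p53-inducible ribonucleotide reductase subunit, 2.92 and 3.97, while Pcna was most abundant at 24.4 and 27.1. The cell cycle genes that p53 and p21 are known to hold down were all under FPKM of 1: 0 of 8 passed the filter, and the highest, Cdc20, had 0.747 and 0.929. Each rested on about 42 reads or fewer in either pool. Birc5, the survivin gene, was at 0.391 and 0.196 FPKM, from about 36 and 16 reads, or 0.501 of the control value (0.257 to 0.918). This interval was not recomputed with the longer read that moved the upper bounds of Phlda3 and Sesn2 past 1. The intervals of Cdc20 (0.772 to 2.01) and the polo-like kinase gene Plk1 (0.407 to 1.16) spanned 1.

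**Figure D5:**
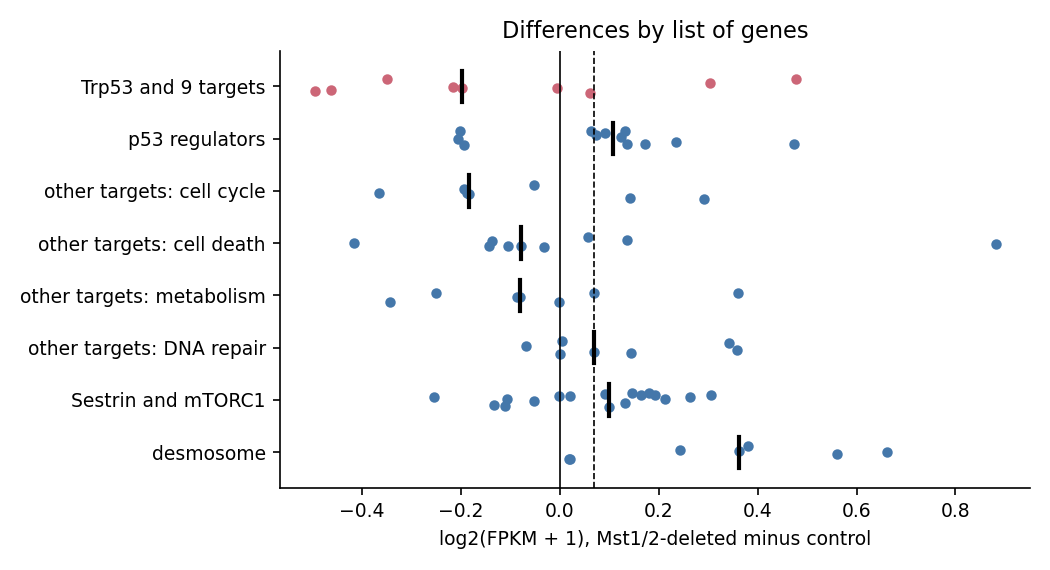
Difference between the libraries on the log2(FPKM + 1) scale for each filtered gene (points; vertical scatter is for display only), by list, with the list median as a black bar; the dashed line is the median of all genes tested, 0.07. The median of Trp53 and its 9 targets is -0.20, that of the desmosome genes 0.36, and the medians of the other lists plotted lie between them.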

How the data were processed

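Per the submitters' processing notes, the authors used TopHat and Cufflinks with the mm9 build; versions, settings and strandedness were not given in these sources. The authors deposited FPKM per transcript and, per the file headers, coverage, a signal giving mean read depth over the transcript. With Python 3.11.15 and pandas 2.3.3, FPKM was summed per symbol and the difference taken on log2(FPKM + 1) for genes with FPKM of at least 1 in either library. Coverage times length, divided by 47.1 bases, the median of low values between 25 and 75 bases taken as 1 read, gave approximate reads. These gave exact (Clopper-Pearson) 95% intervals of FPKM ratios, and exact Poisson intervals of levels, with SciPy 1.17.1. They cover counting error only, and may be too narrow even for that, since amplified reads are not independent molecules. Whole reads could not be recovered: 25.9% and 25.8% of low single-transcript values came within 0.1 of a whole number, so count tests were left out. Starts were raised by 1 to count from 1.

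Members and lists were chosen with earlier results of these data known. All 10 genes are named; from each other list, the genes past 1.2-fold (at most 4) and the most abundant one. Others, among them Mdm4, Wrap53, Sesn3, Cdkn2a, Trp73, Birc5, Plk1, Kdr, Tubb4b, Csf1r, Cd79a and the desmosome genes under 1.2-fold, were named after their values were seen. Pidd1, Tigar, Castor1 and Tubb4b were matched through older symbols. The alternatives were pseudocount, filter, fold, row choice, TPM, centring, length trend, estimation status and read size.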

Additional observations from a re-analysis of the deposited data

How the results depend on the processing

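With 1 library per genotype, no replicate could be left out. No paired analysis was possible because each genotype has 1 pooled library. Of Trp53 and its targets, 0 passed 1.5-fold as reported and 1, Phlda3, did with a pseudocount of 0.1 or after conversion to TPM, since its low FPKM is damped by a pseudocount of 1. All genes past 1.5-fold numbered 558 as reported, 1090 with a pseudocount of 0.1, 152 with 5, 1001 after conversion to TPM and 265 with the filter at FPKM of 5; 172 passed 2-fold. Other genes of the p53, sestrin and mTORC1, and desmosome lists were counted together. Those past 1.5-fold numbered 2 as reported, 5 with a pseudocount of 0.1 and 1 with the length trend subtracted. They numbered 0 with a pseudocount of 5, with the filter at FPKM of 5 or at 2-fold. The median difference of Trp53 and its targets stayed below 0 under the alternatives run. Taking the highest row per symbol put Trp53 at 0.19 and Trp53inp1 at -0.37, because their second rows are then left out. Depth limits Phlda3 and Bbc3 most.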
